A study of Mus musculus with 15 samples.

Results

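Mbp, Pmp22, Fabp7 and Apod are genes of the glia that wrap the olfactory nerve and the other nerves of the nasal lining, the ensheathing and Schwann glia. They were followed in mouse olfactory epithelium after removal of the olfactory bulbs. The genes were taken by symbol: every probe set that the array annotation assigns to 1 of these symbols alone was included, whatever its signal. This gave 6 of the 12422 probe sets that are not array controls, for 4 of 8251 annotated genes. Mbp (96310_at and 96311_at) and Pmp22 (102395_at and 161442_at) have 2 probe sets each, and Fabp7 (98967_at) and Apod (93592_at) have 1 each.

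All arrays carried RNA of olfactory epithelium from male C57Bl/6 mice 6 weeks old, and each of the 15 Affymetrix MG_U74Av2 arrays held 1 pool with 5 µg of RNA from each of 3 mice. The 5 groups had 3 arrays each: bilateral olfactory bulbectomy (OBX) at day 1, OBX at day 5, OBX at day 7, sham surgery at day 5, and untreated mice. No mutant or transgene was involved. OBX severs the axons of the olfactory sensory neurons and removes their target. The sham group was the control for day 5, and untreated mice served at days 1 and 7. Days 1 and 7 had no sham group, so at those days the surgery and the removal of the bulbs cannot be told apart. The replicates are separate pools by label, so p-values measure the spread between pools, not between single mice.

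Ensheathing glia arise from the neural crest, as Schwann cells do, and enclose bundles of unmyelinated olfactory axons from the lamina propria to the bulb. They stay in place while sensory neurons are lost and replaced, and they can take up debris of degenerating axons. Schwann cells of the trigeminal branches in the same lining make compact myelin. Mbp (myelin basic protein) holds the cytoplasmic faces of the myelin membrane together. Pmp22 (peripheral myelin protein 22) is a membrane protein of peripheral compact myelin with claudin-like structure, and it is also made outside glia. Fabp7 (brain lipid-binding protein) carries fatty acids in radial glia, astrocytes and ensheathing glia. Apod (apolipoprotein D) is a secreted lipocalin that binds small lipids and is known in rodents as a gene that injured peripheral nerve turns up.

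The glial label was checked first against other glial genes. Of 37 genes of 3 glial lists with a probe set, 22 were called present on enough arrays to be tested and 11 were present on no array. Sox10, the transcription factor of neural crest glia, was called present on 15 of 15 arrays by its tested probe set and on none by its other one, with signals of the tested one of 1718 ± 131 at OBX day 5, 1999 ± 170 in sham and 1855 ± 247 in untreated mice (SD, n = 3 each). S100b, a calcium-binding protein of Schwann and ensheathing glia, and Aqp4, a water channel of glia that olfactory supporting cells also make, were present on 15 of 15 arrays. Gfap, the intermediate filament of astrocytes and of some ensheathing glia, was called absent on all 15 arrays by both of its probe sets. Vim and Frzb, also in the ensheathing list, and Egr2, Pou3f1 and Pax3, transcription factors of the Schwann cell lineage, were present on no array, and Npy and Nes on 2. Mog, a myelin gene of oligodendrocytes, and Cnp, of oligodendrocytes and Schwann cells, were called absent on all 15 arrays. None of the 4 genes is made by glia alone in every tissue, and the arrays measured whole epithelium.

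Arrays had 49.1% to 58.8% of probe sets called present, and their median signals lay between 621.4 and 718.7. The array files give 2 scan days. The first took OBX day 1 replicates 1 and 2, sham and untreated mice, and the second took OBX day 1 replicate 3 and both later OBX times. OBX day 5 replicate 1 stood apart, with an array weight of 0.069 in a fit that estimates such weights and the highest beta-actin control signal (41252, in a range that began at 23353). The ratio of the 3′ to the 5′ beta-actin control was 1.5 to 2.0 on all arrays, and the highest was OBX day 1 replicate 1. Omp, the marker of mature olfactory sensory neurons, fell, with signals of 12378 ± 6907 at OBX day 5 against 38913 ± 449 in sham mice (log2 change −1.83, adjusted p = 5.8e-04, limma).

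**Figure D1:**
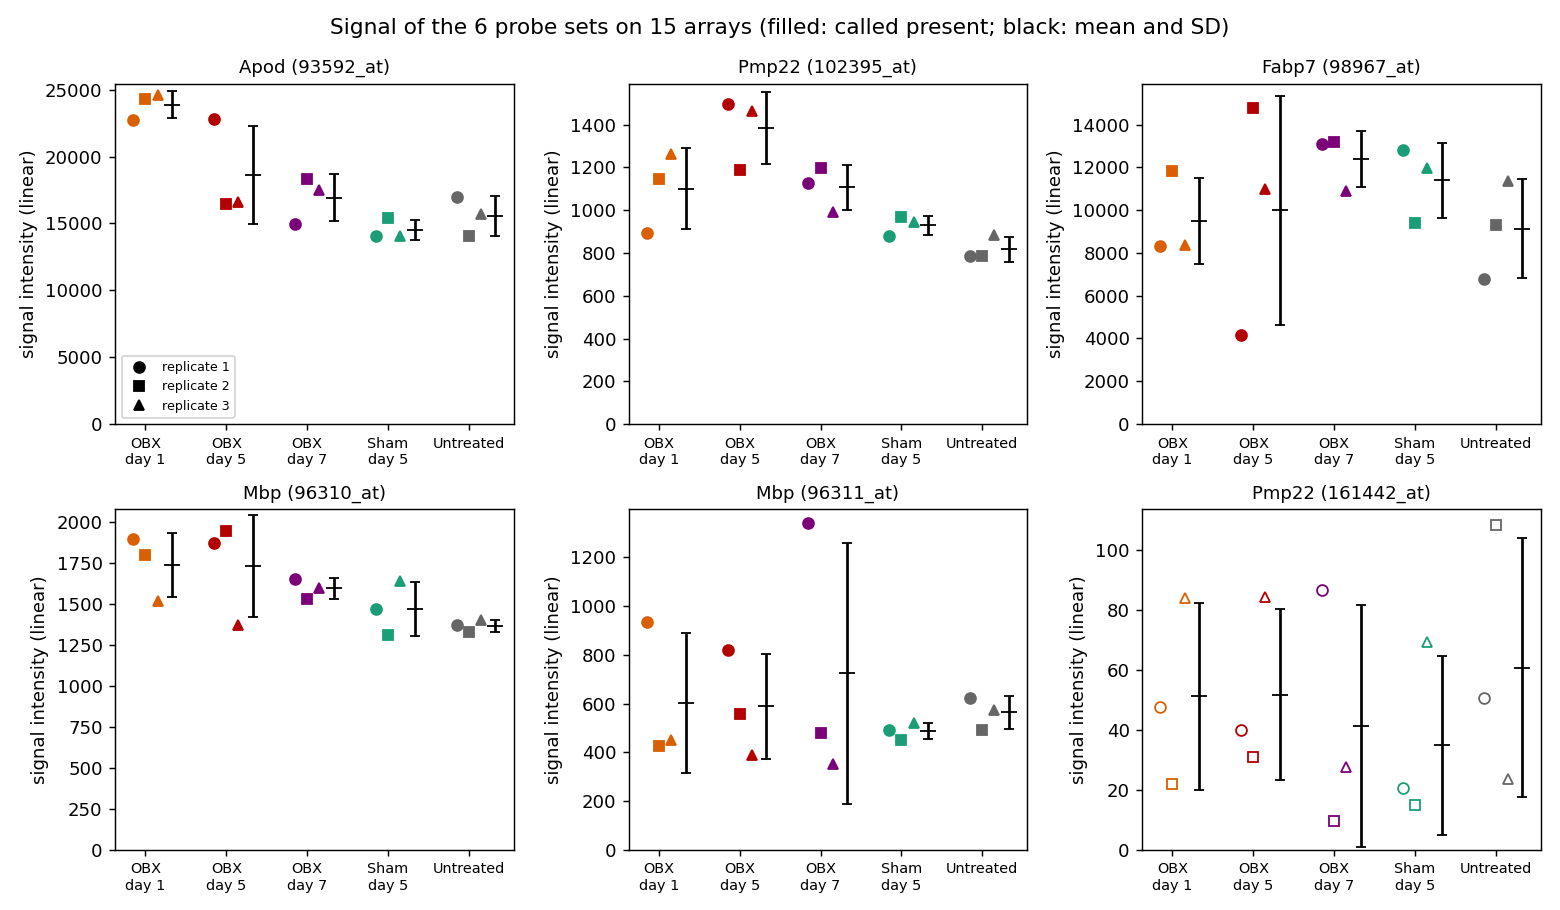
Signal intensity (linear axis from 0) of each probe set of the 4 genes on every array, by group, with the group mean and SD in black to the right and open symbols where the array called the probe set absent. Apod at OBX day 1 lies between 22723 and 24597, above all sham and untreated arrays, and Mbp 96311_at at OBX day 7 replicate 1 reaches 1340.

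Apod was the 1 gene of the 4 with a called rise at OBX day 1. It was called present on 15 of 15 arrays. At OBX day 1 the pools had signals of 22723, 24326 and 24597. OBX day 5 pools had 22820, 16435 and 16600, and OBX day 7 pools had 14946, 18336 and 17522. Sham pools had 14090, 15385 and 14065, and untreated pools had 16945, 14033 and 15693. The OBX day 1 pools were therefore all higher than the 6 control pools, and by day 7 the OBX range overlapped the untreated range. OBX day 5 replicate 1 had a signal like that of day 1, while replicates 2 and 3 lay above the sham pools and within the untreated range.

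The promoter of Apod is shown because Apod is the gene whose signal rose at day 1. The window runs from 250 bases before the transcript start to 50 after it, at chr16:31314759-31315058 on the minus strand of GRCm38.p6 (RefSeq), and the capitals mark the match to a motif searched on both strands.
Apod promoter: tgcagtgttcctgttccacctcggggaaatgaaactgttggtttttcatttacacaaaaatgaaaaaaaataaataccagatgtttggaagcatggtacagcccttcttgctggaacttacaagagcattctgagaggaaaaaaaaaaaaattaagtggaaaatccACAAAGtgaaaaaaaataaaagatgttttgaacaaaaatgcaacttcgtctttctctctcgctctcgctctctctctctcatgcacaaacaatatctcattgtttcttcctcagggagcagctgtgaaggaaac
The motif in capitals is ACAAAG, the core that Sox factors bind, and 18.7% of 32851 promoter windows of this length held it on either strand. TGACNNNGC, the core of the antioxidant response element, was not in the window and was in 12.4% of all windows. TTCNNNGAA, the core that STAT factors bind, was not in it and was in 8.3% of all windows. The 1 window of Fabp7 and the 4 windows of Pmp22 held none of the 3 motifs. A match describes these letters only, and no binding was measured.

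Apod rose at OBX day 1 by 0.62 ± 0.13 on the log2 scale against untreated mice (SE; 1.54-fold, 95% interval 0.35 to 0.89, adjusted p = 0.016, limma). Of the 5 probe sets tested in this comparison it was the 1 that passed, beside 2.46% of the 7508 tested on the whole array (adjusted p under 0.05, either direction). The call was lost, at changes of 0.55 to 0.63, without OBX day 1 replicate 2 (adjusted p = 0.070) or replicate 3 (0.088) and without untreated replicate 2 (0.082) or replicate 3 (0.059), while the other 11 omissions of 1 array kept it. With scan day as a block the change was 0.60 ± 0.15 (adjusted p = 0.088). OBX day 1 was the 1 group scanned on both days, so this fit gave the same change as omitting OBX day 1 replicate 3. The first scan day alone gave it too, so these are 1 comparison and not separate checks. There, 2 OBX day 1 pools were 0.60 above 3 untreated pools and 0.70 above 3 sham pools of day 5, without overlap. Pmp22 (0.31) and Mbp 96310_at (0.44) did not overlap untreated mice there either, and Mbp 96310_at (0.33) did not overlap sham.

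At OBX day 5 Apod was 0.34 ± 0.13 above sham, which missed the threshold (adjusted p = 0.066), with no overlap between the groups. This value rested on OBX day 5 replicate 1, without which it was 0.19 (adjusted p = 0.17). Without OBX day 5 replicate 2 or replicate 3 it was 0.43 or 0.42 and passed (adjusted p = 0.037 and 0.039). At OBX day 7 the change against untreated mice was 0.12 ± 0.13, with a 95% interval of −0.15 to 0.39. Sham and untreated mice differed by −0.10 ± 0.13.

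Among the OBX days, Apod was lower at day 7 than at day 1, by −0.50 ± 0.13 (adjusted p = 0.034, limma), and the groups did not overlap. It was the 1 probe set of 5 that passed in that comparison, beside 4.46% of all probe sets tested, and the 1 of 5 without overlap, beside 30%. All 3 day 7 arrays and 1 of the day 1 arrays shared a scan day, and there the difference was −0.54. That day 1 array lay outside the day 7 range for Apod, and also for Pmp22 (−0.19), Mbp 96310_at (0.07) and Fabp7 (0.56). With 1 array on that side, a lack of overlap is a weak measure. The call was lost with scan day as a block (adjusted p = 0.31). It was also lost with median centring (0.070), without the filter on detection calls (0.063), without the variance trend (0.059), and in 7 of 15 omissions of 1 array, with changes of −0.56 to −0.41 over all 15. The omissions that lost it were each OBX day 1 array (0.074, 0.11 and 0.12), OBX day 7 replicates 1 (0.16) and 3 (0.082), sham replicate 3 (0.053) and untreated replicate 3 (0.052). Day 5 was −0.38 ± 0.13 from day 1 (adjusted p = 0.084), and without OBX day 5 replicate 1 it was −0.53 (adjusted p = 0.0024). The order of the group means was OBX day 1, OBX day 5, OBX day 7, untreated, sham, and no neighbouring pair in this order passed the test. In bulk tissue, more cells of a type and more RNA per cell cannot be told apart.

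**Figure D2:**
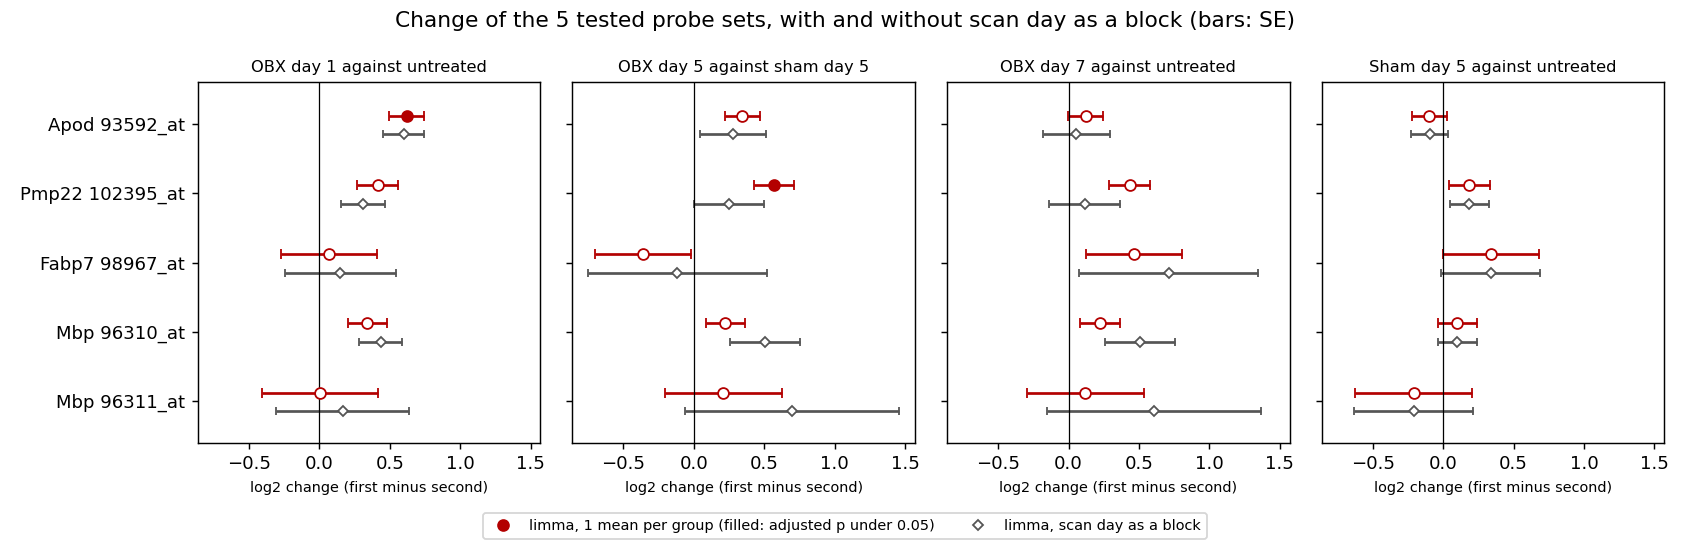
Log2 change with its SE of the 5 tested probe sets in the comparisons of OBX with its control and of sham with untreated mice, from the limma fit with 1 mean per group (circles, filled where the adjusted p was under 0.05) and from the fit with scan day as a block (diamonds). Apod at OBX day 1 is 0.62 without the block and 0.60 with it, and Pmp22 at OBX day 5 is 0.57 without the block and 0.25 with it.

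The genes whose signals were most like Apod's over the 15 arrays were Gstp1 (r = 0.933), a glutathione transferase, Mt2 (r = 0.922), a metallothionein that binds zinc and copper, Fth1 (r = 0.920), the heavy chain of ferritin, and Abcc3 (r = 0.917), an export pump for conjugated compounds. They were picked for that likeness, so their values describe the pattern and add no test. Mt2 had signals of 38034 ± 1143 at OBX day 1 against 24817 ± 1997 in untreated mice (log2 change 0.62 ± 0.12). Fth1 had 39197 ± 2310 against 27534 ± 482 (0.51 ± 0.10). Gstp1 had 10519 ± 94 against 7205 ± 762 (0.55 ± 0.13). At OBX day 7 all 4 were within 0.24 of untreated mice, as Apod was. None of these genes is particular to glia. OBX day 5 replicate 1 was the highest array of its group for Apod, Gstp1, Mt2, Fth1 and Abcc3.

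**Figure D3:**
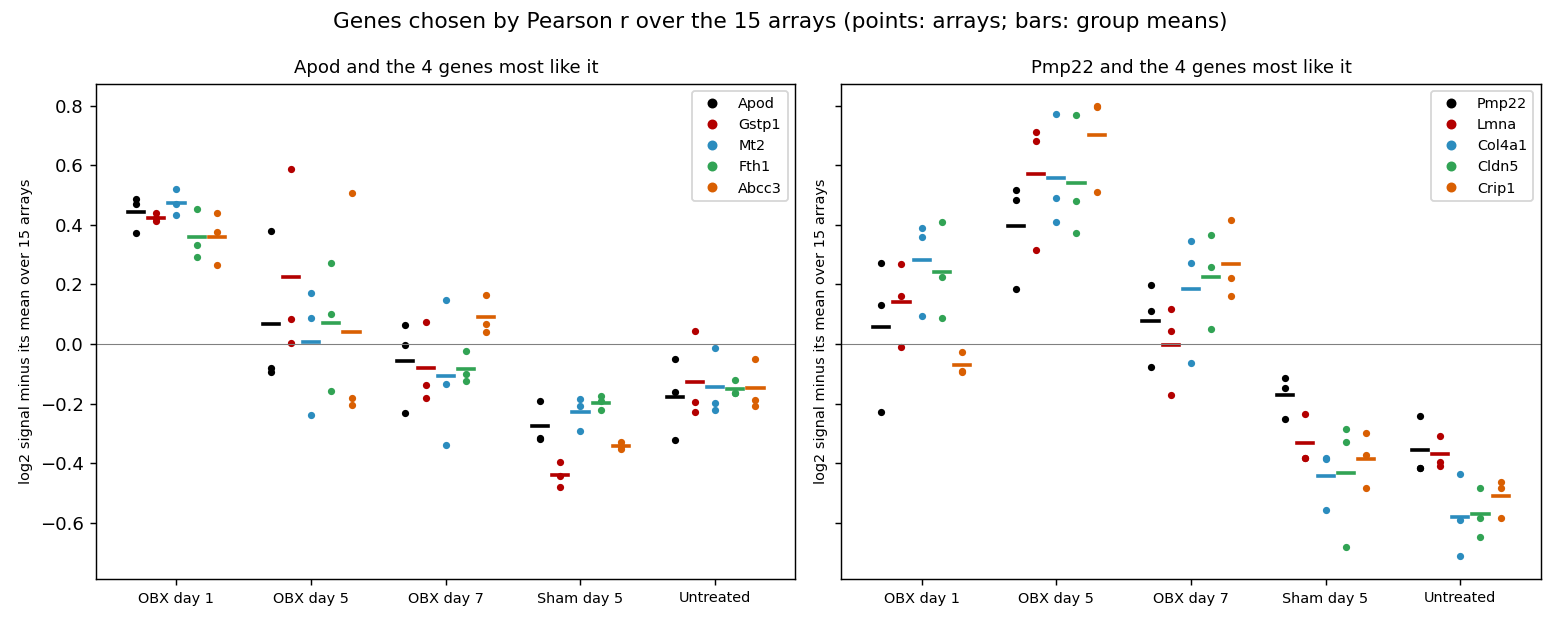
Log2 signal of Apod (left) and Pmp22 (right) and of the 4 genes with the highest Pearson r to each, minus each gene's mean over 15 arrays. Points are arrays and bars are group means. The Apod set is highest at OBX day 1, and the Pmp22 set is highest at OBX day 5.

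Fabp7, the fatty acid carrier, showed no change that passed the test in any comparison. Its signals were 8304, 11824 and 8363 at OBX day 1. They were 4180, 14783 and 10985 at OBX day 5 and 13099, 13205 and 10884 at OBX day 7. Sham pools had 12793, 9409 and 11963, and untreated pools had 6769, 9298 and 11348. Both the lowest and the highest of the 15 signals were in the OBX day 5 group, and replicate 1, the array that stood apart, was the lowest. Every OBX group overlapped its control.

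Against sham, Fabp7 at OBX day 5 was −0.36 ± 0.34, with a 95% interval of −1.09 to 0.37. Without OBX day 5 replicate 1 the sign turned, to 0.17. The OBX day 1 change was 0.07 ± 0.34 (−0.66 to 0.80) and the OBX day 7 change 0.47 ± 0.34 (−0.26 to 1.20). These intervals hold both a fall and a rise, so the arrays could not place Fabp7 more closely than this. The order of its means of log2 signal was OBX day 7, sham, OBX day 1, untreated and OBX day 5. OBX day 1 and untreated mice were the 1 neighbouring pair in this order among the main comparisons, and it did not pass. The other neighbouring pairs were compared only through the alternative with the other control, and none passed. The genes most like it were Zfp758 (r = 0.957), Smarca5 (r = 0.947), Tra2b (r = 0.946) and Zfp53 (r = 0.946), genes of zinc finger proteins, chromatin remodelling and splicing, and none of them passed in a comparison of OBX with its control. Their SD at OBX day 5 was wide as well, as in Smarca5 with 4316 ± 1913.

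Pmp22 was the 1 myelin gene of the 4 that rose. Its probe set 102395_at had signals of 893, 1147 and 1262 at OBX day 1. OBX day 5 pools had 1498, 1189 and 1463, and OBX day 7 pools had 1129, 1199 and 991. Sham pools had 878, 966 and 944, and untreated pools had 785, 784 and 885. All 9 OBX pools were above all untreated pools, and the OBX day 5 and day 7 pools were also all above the sham pools. OBX day 1 replicate 1, at 893, was close to the highest untreated pool (885) and within the sham range.

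At OBX day 5 Pmp22 was 0.57 ± 0.14 above sham (1.48-fold, 95% interval 0.26 to 0.88, adjusted p = 0.012, limma). It was the 1 of 5 probe sets that passed, beside 21% of all probe sets tested, so a share of this size is the background of that comparison. The call was kept when any single array was left out, with changes of 0.51 to 0.67. It was lost in the fit of only the groups compared (0.57 ± 0.15, adjusted p = 0.073) and with scan day as a block (0.25 ± 0.25, adjusted p = 0.77), where OBX day 5 and sham are linked through the OBX day 1 arrays of both scan days alone. On the second scan day, OBX day 5 was 0.12 above the single OBX day 1 array and overlapped it. Against untreated mice the OBX day 5 change was 0.75.

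Pmp22 was 0.42 ± 0.14 above untreated mice at OBX day 1 (adjusted p = 0.17) and 0.43 ± 0.14 above at OBX day 7 (adjusted p = 0.061). Neither passed, although the groups did not overlap in either comparison. At day 7 no probe set of the 4 genes passed, beside 13% of all tested, and 1 of the 5, Pmp22, had an unadjusted p under 0.05. The sham change was 0.19 ± 0.14. The order of the means was OBX day 5, OBX day 7, OBX day 1, sham, untreated. The difference of OBX day 7 from day 5 was −0.32 ± 0.14 (adjusted p = 0.56).

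The other Pmp22 probe set, 161442_at, was called absent on all 15 arrays, with signals of 9.5 to 108.3, and was not tested. The genes most like 102395_at were Lmna (r = 0.927), a lamin of the nuclear envelope, Col4a1 (r = 0.910), a collagen of basement membranes, Cldn5 (r = 0.895), the claudin of endothelial tight junctions, and Crip1 (r = 0.891), a LIM domain protein. Col4a1 had signals of 2833 ± 386 at OBX day 5 against 1411 ± 95 in sham mice. Cldn5 had 3455 ± 503 against 1764 ± 254. As with Apod, these genes were picked for likeness, and Cldn5 and Col4a1 are genes of vessel walls. The endothelial markers were therefore read beside Pmp22: 2 of 8 tested passed at OBX day 5, Tie1 and Cldn5, both higher, beside 12.5% of all genes that rose, and without Cldn5, already picked for its likeness, 1 of 7 passed. The summed signal of all 8 was 9986 to 11281 at OBX day 5 and 6968 to 8359 in sham mice. Cdh5, a defining endothelial gene, was 623 ± 126 at OBX day 5 and 460 ± 149 in sham mice and did not pass. The part of endothelial cells in the Pmp22 signal was not tested.

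Mbp did not pass in any comparison with either probe set. For 96310_at the signals were 1892, 1799 and 1516 at OBX day 1. They were 1872, 1941 and 1372 at OBX day 5 and 1653, 1530 and 1599 at OBX day 7. Sham pools had 1466, 1307 and 1636, and untreated pools had 1368, 1326 and 1400. The OBX day 1 and day 7 pools lay above all untreated pools, while OBX day 5 and sham overlapped.

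The change of 96310_at was 0.34 ± 0.14 at OBX day 1 (adjusted p = 0.26), 0.22 ± 0.14 at OBX day 5 against sham (adjusted p = 0.28) and 0.22 ± 0.14 at OBX day 7 (adjusted p = 0.32). The upper ends of the 95% intervals were 0.64, 0.52 and 0.52, so in this fit a rise of 1 on the log2 scale lies outside each. Without OBX day 5 replicate 3 the day 5 change was 0.38 (adjusted p = 0.049). With scan day as a block the changes were 0.44 ± 0.15 at OBX day 1, 0.51 ± 0.25 at OBX day 5 and 0.51 ± 0.25 at OBX day 7. The SEs of that fit at days 5 and 7 are too wide to place a rise of 1 outside. The order of its means was OBX day 1, OBX day 5, OBX day 7, sham, untreated. Over all 5 tested probe sets, 3 at OBX day 1, 2 at OBX day 5 and 2 at OBX day 7 did not overlap their control, beside 27.1%, 33.9% and 41.8% of all probe sets tested. The genes most like 96310_at were Sod1 (r = 0.796), Mllt1 (r = 0.794), S100a13 (r = 0.775) and Pigu (r = 0.774), a looser likeness than that found for the other 3 genes.

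The probe set 96311_at behaved differently between pools. Its signals were 933, 426 and 450 at OBX day 1, 819, 558 and 389 at OBX day 5, and 1340, 480 and 353 at OBX day 7. Sham pools had 490, 452 and 519, and untreated pools had 625, 493 and 575. In each OBX group replicate 1 was the highest pool, 2.08, 1.47 and 2.79 times the next one at days 1, 5 and 7. In sham and untreated mice the same ratio was 0.94 and 1.09. The files do not say which Mbp transcripts each probe set reads. The changes were 0.01 ± 0.41, 0.21 ± 0.41 and 0.12 ± 0.41 at days 1, 5 and 7, and without OBX day 7 replicate 1 the day 7 change was −0.45 (adjusted p = 0.47).

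The pool with the highest 96311_at signal was also the highest for several genes of the central nervous system. OBX day 7 replicate 1 was the highest of the 15 arrays for all 4 probe sets of Mobp, an oligodendrocyte myelin gene, and the 1 array on which a Mobp probe set was called present (97.0 against at most 23.0 on any other array). Nrgn, a postsynaptic protein of forebrain neurons, was called present on that array alone, at 496.4 against at most 48.8 elsewhere. Gad1, the enzyme that makes GABA in inhibitory neurons such as those of the olfactory bulb, was also highest there, at 515.1, and was present on 5 of 15 arrays. One of the Mag probe sets was highest there too, at 217.8, but was called absent. On the same array Mog, Cnp, Gfap and both Camk2a probe sets were called absent. The signal of 96310_at in that pool, 1653, was within the range of the other OBX pools. OBX day 1 replicate 1, the second highest for 96311_at, was next after OBX day 7 replicate 1 for 2 of the 4 Mobp probe sets, with 29.6 and 51.8, and was called absent for both. Of the olfactory bulb neuron markers 3 were tested, and Nrgn was not among them. Their summed signal was 1630 in OBX day 7 replicate 1 and 1227 and 932.1 in replicates 2 and 3. It was 1121 to 1355 in untreated mice and 1111 to 1675 in sham mice. At OBX day 7 the log2 changes of the 3 ran from −2.09 to 0.53. The part of such transcripts in the Mbp values was not tested.

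**Figure D4:**
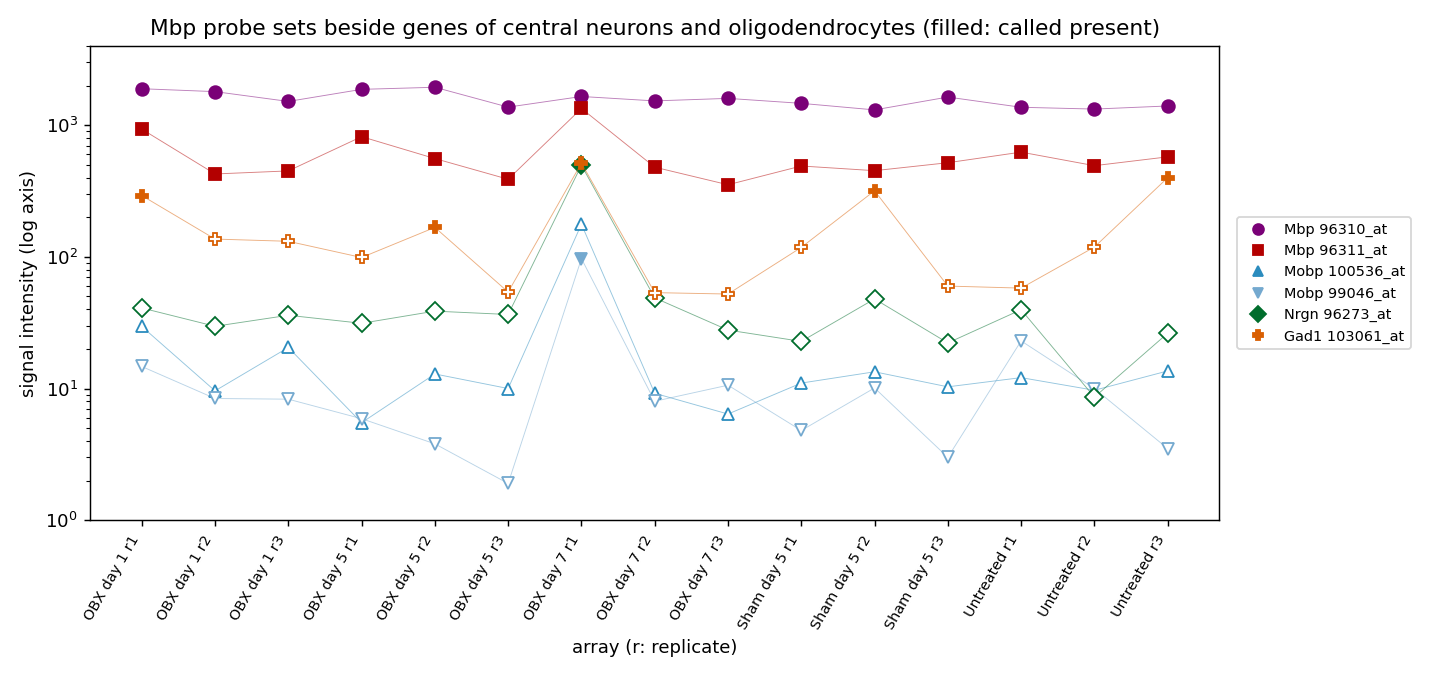
Signal intensity (log axis) of both Mbp probe sets and of 4 probe sets for Mobp, Nrgn and Gad1 on each array, filled where called present. OBX day 7 replicate 1 is the highest array for Mbp 96311_at (1340), Nrgn (496.4) and the Mobp probe set called present (97.0), while Mbp 96310_at is 1653 there.

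Across all 5 groups, Apod (adjusted p of the F test = 0.0054) and Pmp22 (0.013) differed among groups, and 96310_at (0.27), 96311_at (0.96) and Fabp7 (0.67) did not pass, beside 19.3% of all probe sets. The change from control differed between OBX days in none of the 5 by the test of that difference (none of 5 had an unadjusted p under 0.05), beside 1.48% of probe sets for day 5 against day 1 and 0% for day 7 against day 5. For Apod the day 5 change minus the day 1 change was −0.28 ± 0.18 (adjusted p = 0.54). Comparing days directly, OBX day 5 and OBX day 1 differed in none of the 5 (2 had an unadjusted p under 0.05), beside 7.82%, and OBX day 7 and OBX day 5 in none (1 unadjusted), beside 0%. Sham and untreated mice differed in none (0 unadjusted), beside 0%. All 5 overlapped in these last 3 comparisons, beside 23.9%, 10.1% and 7.25% of probe sets without overlap. The rise of Apod at day 1 and that of Pmp22 at day 5 were thus each called at 1 time only, while a difference in timing between them was not tested.

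Other genes of the same pathways were read from 7 lists, each gene by its brightest tested probe set. Over all 5740 genes so tested, 1.93% rose and 0.697% fell at OBX day 1, 12.5% rose and 9.16% fell at OBX day 5, and 7.47% rose and 6.17% fell at OBX day 7, with medians of 0.01, 0.00 and 0.03.

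The list of compact myelin genes moved little. At OBX day 5 Pmp22 alone of 6 tested genes rose and none fell, with a median of 0.19, and none of the 6 passed at OBX day 1 (median 0.21) or OBX day 7 (median 0.18). Mal, Ugt8a, Cldn11 and Gpm6b, which encode or make parts of the myelin membrane, and Mbp were the other tested genes. Cnp, Mag, Gjb1 and Mog were absent on all arrays and Mobp on all but 1, so the list as a whole was read through few genes.

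Of the ensheathing glia and lipid carrier list, Apod alone of 7 rose at OBX day 1 (median 0.07). S100b and Aqp4 rose at OBX day 5 (median 0.35), and both rose at OBX day 7 (median 0.37). S100b had signals of 1214 ± 88 at OBX day 5 against 713 ± 107 in sham mice (log2 change 0.78 ± 0.16, adjusted p = 0.0027, limma). Aqp4 had 8695 ± 1760 against 5199 ± 739 (0.73 ± 0.14, adjusted p = 0.0020). At OBX day 7 S100b was 0.85 ± 0.16 and Aqp4 0.74 ± 0.14 above untreated mice. Fabp7, in the same list, did not pass at any of these times.

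Among glial lineage genes, Erbb3, the neuregulin receptor that Schwann cell precursors need, rose at OBX day 1, with 5179 ± 282 against 3631 ± 276 in untreated mice (0.51 ± 0.10, adjusted p = 0.015, limma), and was 0.40 ± 0.10 above sham at OBX day 5. Sox2, made by immature glia and by basal and supporting cells of this epithelium, rose by 0.44 ± 0.11 at OBX day 5. In the same comparison Id4, an inhibitor of helix-loop-helix factors, fell by 0.84 and the adhesion molecules Ncam1 and L1cam, which sensory axons carry as well as glia, fell by 0.39 and 0.63. The list of 9 tested genes thus had 2 rising and 3 falling at OBX day 5 and at OBX day 7, and 1 rising at OBX day 1. Sox10 was −0.22 from sham at OBX day 5 and did not pass.

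In the family of Pmp22, 2 of 5 tested genes rose at OBX day 5 (median 0.41), Pmp22 and Emp1, an epithelial membrane protein (0.58 ± 0.20, adjusted p = 0.047, limma). Emp1 had 3495 ± 1200 at OBX day 5 and 2242 ± 81 in sham mice, and Emp2, Emp3 and Perp did not pass. None of the family passed at OBX day 1 or OBX day 7.

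In the family of Fabp7 the members that rose were carriers of retinoic acid and a fatty acid carrier of muscle, not Fabp7. Crabp1, a cellular retinoic acid-binding protein, had 8515 ± 2794 at OBX day 5 against 3621 ± 449 in sham mice (1.19 ± 0.19, adjusted p = 5.1e-04, limma). Crabp2 had 3054 ± 261 against 1846 ± 197 (0.73 ± 0.12). Fabp3 had 222.3 ± 74.6 against 121.4 ± 2.3 (0.82 ± 0.28, adjusted p = 0.047). These were 3 of 6 tested, with a median of 0.40 and none falling. Crabp2 alone rose at OBX day 1 (0.52 ± 0.12), and Crabp1 and Crabp2 rose at OBX day 7 (0.91 ± 0.19 and 0.90 ± 0.12).

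The apolipoprotein and lipid transport list, which holds Apod, had 2 of 13 genes rising at OBX day 1, Apod and Clu. Clu (clusterin), a secreted chaperone that also travels with lipoproteins, had signals of 29543 ± 4072 at OBX day 1 against 12786 ± 2514 in untreated mice (1.22 ± 0.16, adjusted p = 0.0011, limma). In the OBX day 5 pools 8 of 13 rose and none fell, with a median of 0.60. Apoe, which delivers lipid to cells and is made by macrophages and glia, had 32288 ± 3983 against 21314 ± 2730 in sham mice (0.60 ± 0.12, adjusted p = 0.0023). Clu was 1.32 ± 0.16, Pltp, the phospholipid transfer protein, 0.71 ± 0.13 and Lcn2, a lipocalin of the acute phase response, 2.68 ± 0.60 above sham. At OBX day 7 3 rose: Abca1, the cholesterol exporter (1.08 ± 0.26), Clu (0.58 ± 0.16) and Lpl, lipoprotein lipase (0.70 ± 0.20). Sham mice also differed from untreated mice in Lpl, by 0.62 ± 0.20, and in Clu, by −0.43 ± 0.16, though neither passed.

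Genes of cholesterol synthesis, which supplies the myelin lipid, had medians of 0.29 at OBX day 1, 0.19 at OBX day 5 and 0.34 at OBX day 7 over 11 tested genes. None passed at OBX day 1. Sqle and Lss rose at OBX day 5, and Sqle, Idi1 and Cyp51 rose at OBX day 7. Sqle (squalene epoxidase) had 6920 ± 221 at OBX day 7 against 4742 ± 565 in untreated mice (0.55 ± 0.10, adjusted p = 0.0022, limma).

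The counts of the 7 lists moved with single arrays and with the scan day. With scan day as a block, 1 gene of the apolipoprotein list was left at OBX day 1 and 1 at OBX day 5, and no other call in these lists was left on any of the 3 days. Without OBX day 5 replicate 1, rising genes at OBX day 1 numbered 5 in the apolipoprotein list, 2 in the cholesterol list, 2 in the fatty acid binding family and 1 in the Pmp22 family, and 2 lineage genes fell. The same omission gave 4 rising cholesterol genes and 2 compact myelin genes at OBX day 5, and 5 apolipoprotein and 5 cholesterol genes, 2 of the Pmp22 family and 1 of compact myelin at OBX day 7. Without OBX day 5 replicate 3, OBX day 5 had 4 rising genes in the ensheathing list, 2 in compact myelin, 1 in the Pmp22 family and 0 in the cholesterol list, and the Pmp22 family had 1 rising gene at OBX day 1 and 1 at OBX day 7. Without OBX day 7 replicate 1, OBX day 7 had 0 rising genes in the apolipoprotein list, 1 in the cholesterol list and 1 rising and 1 falling lineage gene. That omission also left 1 rising gene in the Pmp22 family and 1 in the cholesterol list at OBX day 5, and 0 in the fatty acid binding family at OBX day 1. Calls over all 7424 to 7508 probe sets tested moved as well. They were 185, 1578 and 978 at OBX days 1, 5 and 7 in the main fit and 50, 65 and 13 with the scan day block. Without OBX day 5 replicate 1 they were 637, 2057 and 2040, and without its replicate 3 they were 224, 1640 and 1046. Without OBX day 7 replicate 1 they were 151, 1411 and 572.

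**Figure D5:**
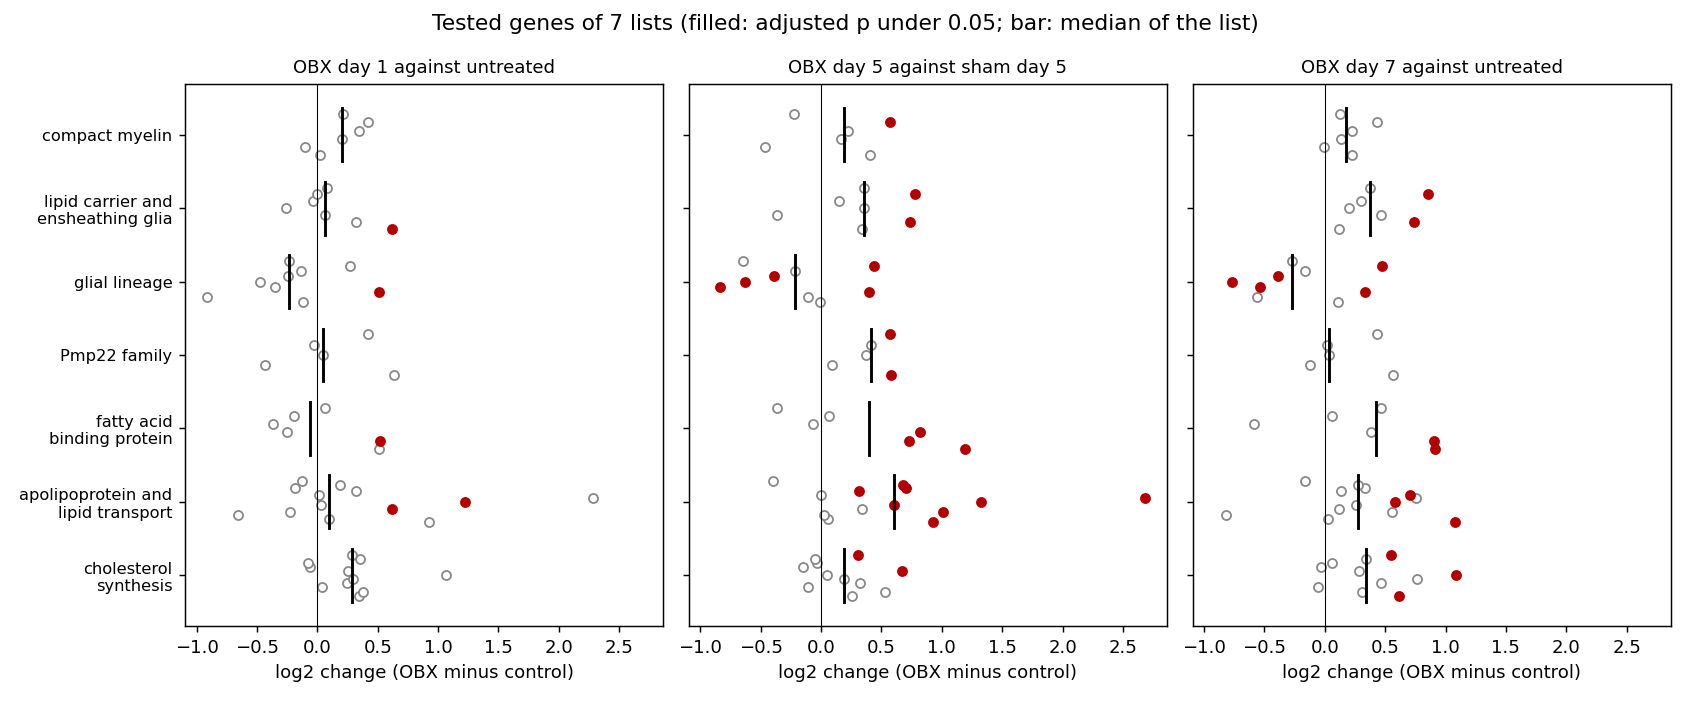
Log2 change of each tested gene of the 7 lists (points, filled where the adjusted p was under 0.05) with the list median (bar), at OBX day 1, day 5 and day 7 against the control of that day. At OBX day 5 the apolipoprotein and lipid transport list has a median of 0.60 with 8 of 13 genes rising, and the compact myelin list a median of 0.19 with 1 of 6 rising.

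Markers of other cells moved in the same samples. At OBX day 5, 7 of 8 tested sensory neuron markers fell (median −1.15) and their summed signal was 43197 to 66459, against 131543 to 138437 in sham mice. Of the macrophage markers 7 of 14 rose (median 0.62), with a summed signal of 39506 to 43209 against 20424 to 26031 in sham mice. Lyz2, the lysozyme of macrophages, had 7096 ± 1734 against 2727 ± 431. Of the fibroblast and perineurium markers 4 of 13 rose (median 0.23). At OBX day 1, where Apod rose, 1 of 8 sensory neuron markers fell and 2 of 14 macrophage markers rose, with summed macrophage signals of 27107 to 27776 against 19585 to 22702 in untreated mice. All arrays are scaled to the same trimmed mean, so a signal is a share of the RNA in the pool. The part of these other cells in the changes of Apod and Pmp22 was not tested.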

How the data were processed

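RNA of 15 pools of olfactory epithelium was measured on Affymetrix MG_U74Av2 arrays. The authors deposited, for each array, a signal intensity per probe set on a linear scale, a detection p-value and a call (present, marginal or absent), and per the file headers the targets were made and hybridised by the manufacturer's standard protocol. For the analysis software, a name is not given in the sources used here. Every array had nearly the same trimmed mean of its signals, 1500.6 to 1500.7. The array station's settings, as deposited, gave a scan date and a hybridize date with its time. Arrays that shared a hybridize date and time were taken as a fluidics run, a name given here. The number of arrays, 3 in each group, limits the precision.

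Signals were floored at 1 and taken to log2. Of 12422 probe sets, 10833 carried 1 gene symbol in the platform annotation, 396 several and 1193 none, and 7508 called present on at least 3 of 15 arrays were tested. The test was limma 3.58.1 in R 4.3.3, with 1 mean per group over all 15 arrays, eBayes with a variance trend and Benjamini-Hochberg adjustment over all tested probe sets within a comparison, two-sided at 0.05. Errors of changes are SE with 95% intervals, and errors of signals are SD of 3 arrays. The script was tested on simulated data.

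The 4 genes, the lists and the markers were chosen with earlier results of these data known. Named genes were all probe sets of the 4 genes, up to 4 passing genes with the smallest adjusted p in each list (otherwise the 2 with the smallest p), and the 4 genes with the highest Pearson r to each of the 4. Marker genes named outside this rule, such as Omp, Sox10, Lyz2 and Cdh5, and the genes beside Mbp were chosen after their values were seen. Promoter windows are from RefSeq on GRCm38.p6 (6 windows for Apod, Pmp22 and Fabp7, and none used for Mbp). Alternatives were quantile normalization, median centring, array weights, no filter on calls, no variance trend, scan day or fluidics run as a block, the other control, only the groups compared, the replicate number as a block, and leaving out each array.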

Additional observations from a re-analysis of the deposited data

How the results depend on the processing

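The number of probe sets of the 4 genes that passed, of 5 tested, was recomputed under each alternative. For OBX day 1 against untreated mice it was 1, and it was 2 with array weights, 0 with scan day as a block, 3 with fluidics run as a random block and 0 to 1 when 1 array was left out. For OBX day 5 against sham it was 1, and it was 0 with scan day as a block, 2 with fluidics run, 0 with only the groups compared and 1 to 3 when 1 array was left out (2 without OBX day 5 replicate 2 and 3 without replicate 3). For OBX day 7 against untreated mice it was 0, and it was 1 with array weights, 2 with fluidics run, 1 with only the groups compared and 0 to 1 when 1 array was left out (1 without OBX day 1 replicate 1 or OBX day 5 replicate 1 or 2). For OBX day 5 against OBX day 1 it was 0, and it was 1 with quantile normalization, 1 with array weights, 2 with fluidics run and 0 to 1 when 1 array was left out. For OBX day 7 against OBX day 5 it was 0, and 1 with fluidics run. For OBX day 7 against OBX day 1 it was 1, and it was 0 with median centring, without the filter on calls, without the variance trend and with scan day as a block, and 0 to 1 when 1 array was left out. For any difference among groups it was 2, and 0 with scan day as a block. The cause of these moves was not tested.

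Over all 7508 probe sets, scan day as a block gave 50 calls in place of 185 at OBX day 1, 65 in place of 1578 at OBX day 5, 13 in place of 978 at OBX day 7, 116 in place of 587 between OBX days 5 and 1, 46 in place of 335 between OBX days 7 and 1, and 15 in place of 111 for the day 5 and day 1 difference in change. With fluidics run as a random block the consensus correlation of arrays of 1 run was negative (−0.25), and the counts were 1492 at OBX day 1, 3847 at OBX day 5, 3083 at OBX day 7, 1550 between OBX days 5 and 1, 979 (in place of 0) between OBX days 7 and 5 and 1141 between OBX days 7 and 1. Array weights gave 992 at OBX day 1, 2383 at OBX day 5 and 2245 at OBX day 7, 893 between OBX days 5 and 1 and 1171 between OBX days 7 and 1. Leaving out 1 array gave 50 to 637 at OBX day 1, 1076 to 2057 at OBX day 5 and 572 to 2040 at OBX day 7, the highest each time without OBX day 5 replicate 1. OBX days 5 and 7 and their controls were scanned on different days and are linked through the OBX day 1 arrays alone. Of 83 single values that passed and were recomputed, 83 kept their sign and 64 passed again. Of 1137 that had not passed, 19 passed in an alternative and 69 had the other sign.

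The r of deviations from group means was −0.347 to 0.371 for same-numbered arrays (median 0.046). For different numbers it was −0.347 to 0.300 (median −0.019). These values cannot settle whether arrays of the same number share a factor, and the main fit did not pair arrays by number. The replicate block left 0 probe sets passing for OBX day 7 against OBX day 1 (Apod, adjusted p = 0.054), and the other counts for the 4 genes stayed within 1.5 times.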

Other observations

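OBX day 7 replicate 1 held 70 probe sets called present on that array alone, against 5 to 31 on every other array outside OBX day 5, where the counts were 37, 59 and 87. Of the 56 of these with a gene name, 5 had at least 3 times the signal of the highest other array. They were Nrgn (10.17 times), a neuronal calmodulin-binding protein, Agt (7.1 times), the precursor of angiotensin, Mobp (4.22 times), Cck (4.19 times), the neuropeptide cholecystokinin, and an immunoglobulin kappa variable segment (3.28 times). Cck had a signal of 1424.9 on that array and at most 340.1 elsewhere, and Agt had 621.9 and at most 87.6. These genes were chosen by that ratio after their values were seen, and they come from 1 pool.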
